A study of Mus musculus with 15 samples.

Results

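Haematopoietic stem cells (HSC) sorted from the bone marrow of old and young mice were compared gene by gene. The 8 arrays of HSC were taken by their titles from the 15 arrays of the study, 3 of old HSC and 5 of young HSC, and every difference below is old minus young. The study also held arrays of granulocyte/macrophage progenitors (GMP), 3 old and 4 young, which entered the same fit and served to ask whether a difference in HSC was also seen in a daughter population. The series is about replication stress in ageing stem cells, and genes of DNA replication and of oxidative phosphorylation were left to one side here, so that the other functions could be described.

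All mice were wild-type C57Bl/6 and labelled male. The young animals had an age of 6 to 12 weeks and the old ones of 22 to 30 months. HSC were gated as Lin- cells that carried c-Kit, Sca-1 and CD150 and lacked Flk2 and CD48, and GMP as Lin-/c-Kit+/Sca-1-/CD34+/FcγR+ cells, both from marrow enriched for c-Kit and sorted in 2 rounds. The RNA was amplified before hybridisation. Nothing in the labels tells if each array came from its own mouse or from a pool, so p-values measure the spread between arrays, which may be technical.

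HSC sit at the top of blood formation. They divide rarely, keep protein synthesis low, and are held in the marrow niche by adhesion molecules, chemokines and growth factor receptors. In old mice the phenotypic HSC pool is larger, gives less lymphoid output and works less well after transplantation, and many surface receptors are known to differ with age.

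Of 19296 genes, each read from its brightest probe set with a single symbol, 2213 (11.5%) differed with age in HSC at a limma adjusted p under 0.05. The calls leaned downward, with 1779 genes (9.22%) lower in old HSC and 434 (2.25%) higher, which put 80.4% of the calls on the lower side. The arrays did not share one spread of values, however. The interquartile range over all genes was 2.15, 1.96 and 2.33 log2 on old HSC 1, 2 and 3 and 2.69, 2.62, 2.59, 2.21 and 2.46 on young HSC 1 to 5. Quantile normalization, which gives every array the same distribution, left 1310 calls (6.79%), 532 higher (2.76%) and 778 lower (4.03%), or 59.4% on the lower side. When each array was centred and scaled to a common interquartile range, 69.7% of the calls were lower.

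Between the deposited and the quantile-normalised values, 940 genes (4.87%) were called both ways in the same direction, 212 higher (1.10%) and 728 lower (3.77%), and 0 were called in opposite directions. "Held" below means called under both. Another 1273 genes were called only as deposited and 370 only after quantile normalization. The plot of both differences gene by gene shows a band around equal values, with few large differences far from it. With the interquartile range as a covariate in the model 105 genes were called, so differences in the spread of the arrays and age cannot be told apart for most calls.

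**Figure D1:**
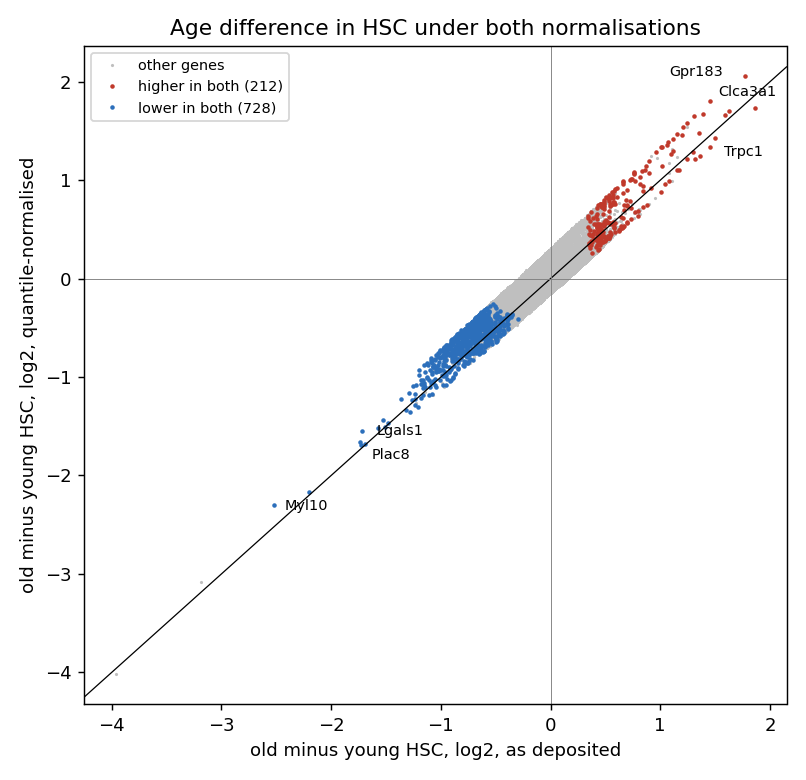
Old minus young HSC for each of the 19296 genes, in log2, from the deposited values (x axis) and after quantile normalization (y axis). Red points are the 212 genes higher and blue points the 728 lower under both, grey points are all other genes, and the diagonal marks equal values. Points run along the diagonal as a band with members on both sides: Gpr183 and Clca3a1 lie above it and Trpc1 just below, while Myl10 and Lgals1 lie above it on the lower side.

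The count also depended on single arrays. Without old HSC 1 it fell to 427 and without old HSC 2 to 345. It was 907, 913 and 1360 without young HSC 2, 3 and 5, and 5312 without young HSC 4. In young HSC 4 Xist, the RNA of the inactive X chromosome in females, read 11.51 log2 while the mean of the Y-linked Kdm5d, Eif2s3y and Uty was 4.94, against 8.45 to 8.8 in old HSC, although every sample was labelled male. Xist also stood at 11.16, 10.02 and 10.26 in young HSC 2, 3 and 5, against 4.72 in young HSC 1 and 5.46 to 5.67 in old HSC. The Y-linked mean was 7.12, 8.47 and 8.42 in young HSC 2, 3 and 5 and 8.8 in young HSC 1. As no old HSC array had high Xist, a difference in sex and age cannot be fully told apart in these calls. X-linked genes were called in 91 of 706 cases (12.9%) and other genes in 2122 of 18590 (11.4%). Of the 940 genes called under both normalizations, 212 (1.10% of all genes) were also called in each of the 8 fits that left out 1 HSC array, 31 of them higher (0.161%) and 181 lower (0.938%).

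On the 8 HSC arrays Kit, which the gate requires, stood at 11.09 to 11.46 log2, and the HSC genes Mllt3 and Hlf, both transcriptional regulators, at 11.34 to 11.92 and 10.71 to 11.3. Of 10 measured HSC-defining genes 0 were called as deposited, and their median difference was 0.04 beside 0.03 for all genes. The same 10 had 0 genes called in 7 of the fits without 1 HSC array, and 2 lower without young HSC 4. After quantile normalization Slamf1, which encodes the CD150 of the gate, was higher by 0.50 (limma adjusted p = 0.036) and Mllt3 by 0.46 (limma adjusted p = 0.0484). With each array scaled to a common interquartile range 4 of the 10 were higher and 0 lower, with a median of 0.28. Of the 2 proteins named as lacking in the gate, the transcript of Flt3 (Flk2) was above the level of olfactory receptor genes on all 8 arrays, and that of Cd48 on young HSC 4.

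Genes of multipotent and committed progenitors behaved otherwise. Of 13 such genes, 7 were lower in old HSC and 1 higher, beside 9.22% lower and 2.25% higher over all genes, and 6 and 1 held. Their median difference was -0.69, and -0.47 after quantile normalization. Cd34, a sialomucin that marks progenitors more than dormant HSC, read 9.58, 9.12 and 9.35 log2 in old HSC and 10.27, 10.55, 10.51, 10.15 and 10.4 in young HSC. All 3 old arrays lay below all 5 young ones, and the difference was -1.03 ± 0.14 (SE, limma adjusted p = 9.46e-04). Flt3, the receptor whose protein is the Flk2 that the gate excludes, read 7.65, 7.74 and 7.88 against 8.65, 8.29, 8.58, 8.47 and 8.25, again with no overlap, a difference of -0.69 ± 0.12 (limma adjusted p = 0.00341).

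Satb1, a chromatin organiser of the lymphoid lineage, fell by 0.92 ± 0.15 without overlap. Cd52 was called lower at 5.81 to 6.28 against 6.69 to 7.22, but the old arrays were all under the level of olfactory receptor genes, so no fold is given. Emb, an adhesion protein of the basigin family, fell by 1.08 ± 0.22, with young HSC 4 at 9.61 below old HSC 3 at 9.79. Lsp1, a leukocyte actin-binding protein, fell by 0.74 only as deposited. Cd53, a tetraspanin of leukocytes, went the other way by 0.87 ± 0.26. Cd48, excluded by the gate, read 5.94 to 6.39 in old HSC and 5.95 to 7.56 in young HSC with young HSC 4 highest, and was not called. The list kept 4 to 7 lower calls in the 8 fits without 1 array: Cd34, Flt3, Satb1 and Plac8 were called in all 8, Cd52 in 1 and Cd53 in 3. A smaller share of progenitor-like cells in the gate and less of these RNAs per cell cannot be told apart in such bulk samples.

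**Figure D2:**
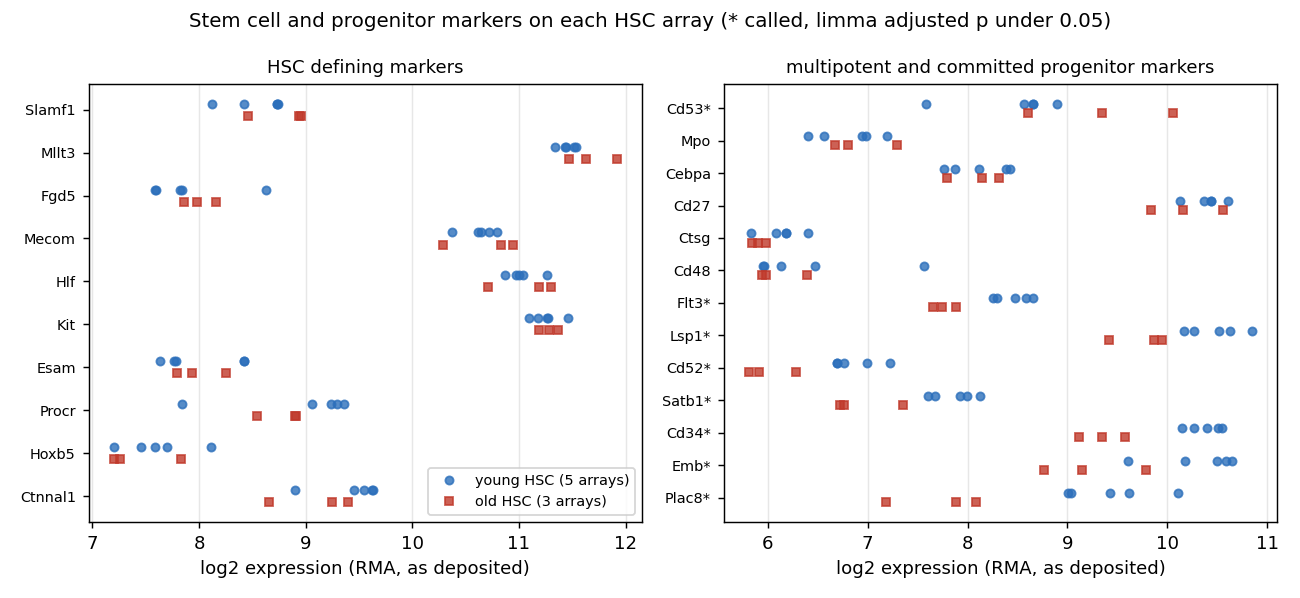
Deposited log2 expression (x axis) of HSC-defining genes (left) and of genes of multipotent and committed progenitors (right) on each HSC array, blue circles for 5 young and red squares for 3 old arrays. Old and young overlap for every HSC-defining gene, while the old arrays lie below the young ones for Cd34, Flt3, Lsp1, Cd52, Satb1 and Plac8.

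Markers of other blood and marrow cells had few calls, and over all genes 2.25% were higher and 9.22% lower. Lists this short cannot tell so few calls from those shares. Of 11 neutrophil, 10 mast cell and basophil, and 9 stromal genes 0 were called. Of 7 erythroid genes 1 was higher (14.3%), and of 12 monocyte and macrophage genes 2 were lower (16.7%), Lyz2 and Ctss. In that last list the defining receptor Csf1r read 5.98 to 6.37 in old and 5.8 to 6.38 in young HSC and Adgre1 5.18 to 5.63 and 5 to 5.82, both at the level of olfactory receptor genes. Lists of dendritic, T and NK, and megakaryocyte genes had 1 call in each direction, among them Clec9a, Klrb1c and Clec1b, which are described with the lectins. Of 10 B and plasma cell genes 1 was higher, and of 11 endothelial genes 1 was lower, the sialomucin Emcn at -1.18 ± 0.20 (limma adjusted p = 0.00291), which HSC also express.

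The 15 largest increases and 15 largest decreases among held genes whose old and young arrays did not overlap are plotted array by array. Of all genes, 5.10% had every old array above every young one and 7.69% the reverse, 0.777% were held and higher without overlap and 2.69% held and lower without overlap. Of the 30 genes, 26 were called in each of the 8 fits without 1 HSC array. With the interquartile range as a covariate 17 of the 30 were called. The 13 not called were Tnfrsf26, Clec9a, Ccl19, F630111L10Rik, Mgst1, Rnu3a, Lipo3, 9030619P08Rik, Tspan8, Rnase6, C330018D20Rik, Tmem267 and Slc35a4. Because a dim gene has no exact fold, the 95th percentile of olfactory and vomeronasal receptor genes, 6.65 to 7.19 log2 on these arrays, was used as a background level, and a gene under it on every array of a group is given as "at least".

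**Figure D3:**
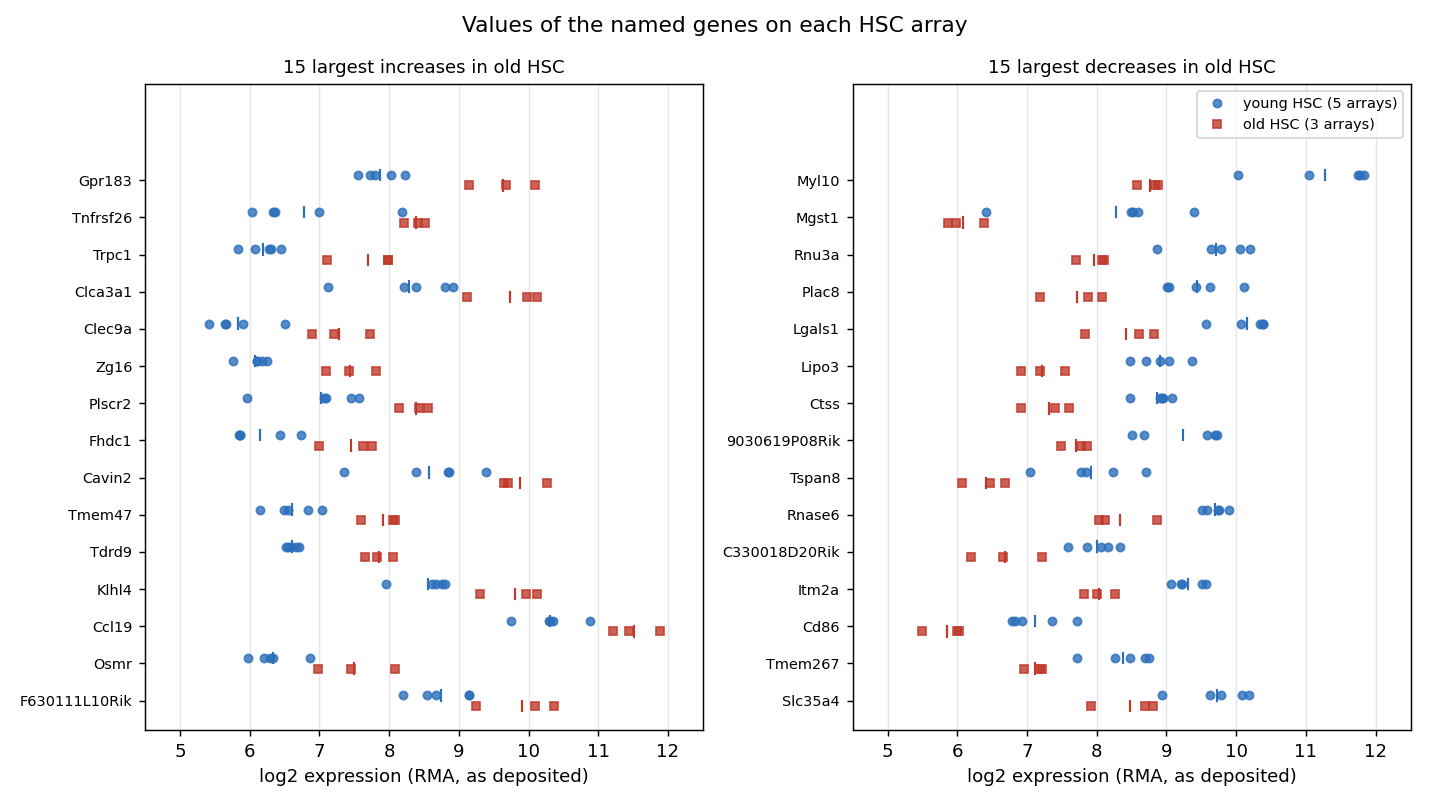
Deposited log2 expression (x axis) on each HSC array for the 15 largest increases (left) and the 15 largest decreases (right) among genes called under both normalizations without overlap, blue circles for 5 young and red squares for 3 old arrays, with a bar at each group's mean. Within every gene the red and blue points are apart, narrowly for Tnfrsf26, Mgst1, Slc35a4 and F630111L10Rik.

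Gpr183, the receptor for oxysterols that guides immune cell migration, read 9.67, 9.15 and 10.1 log2 in old HSC and 8.23, 7.73, 7.8, 8.03 and 7.55 in young HSC. Every old array was above the highest young one, and the difference was 1.77 ± 0.18 (3.42-fold, limma adjusted p = 1.01e-04), or 2.06 after quantile normalization. Ccl19, a chemokine that attracts cells bearing CCR7, read 11.44, 11.88 and 11.21 in old and 10.31, 10.3, 9.75, 10.35 and 10.88 in young HSC, 1.2 ± 0.21 higher (limma adjusted p = 0.00305). Ccl19 has 4 probe sets and near-identical copies in the mouse genome, so which copy was measured is uncertain.

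Osmr, the signalling subunit of the oncostatin M receptor, read 8.08, 6.98 and 7.45 in old and 6.87, 6.33, 6.29, 5.97 and 6.21 in young HSC. Old HSC 2 was only just above young HSC 1, and the mean difference was 1.17 ± 0.21 (limma adjusted p = 0.00359). Of the young arrays only young HSC 1 was above the background level, so no fold is given. Tnfrsf26, a mouse TNF receptor family member, read 8.22, 8.41 and 8.51 against 7, 6.04, 6.37, 8.18 and 6.34. Young HSC 4 stood almost at the old level, and the difference of 1.59 ± 0.43 (limma adjusted p = 0.0258) was called in 3 of the 8 fits without 1 array. It was lost without old HSC 1, old HSC 2 or young HSC 2, 3 or 5, with values between 1.41 and 1.67. Its relatives Tnfrsf22 and Tnfrsf23, differed by 0.15 ± 0.13 and 0.30 ± 0.12 and were not called.

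Among 32 receptors for chemoattractants and lipids, 3 were higher (9.38%, beside 2.25% of all genes) and 2 lower (6.25%, beside 9.22%), and all 5 held. With the arrays scaled to a common interquartile range the list had 6 higher and 6 lower. Beside Gpr183 the higher ones as deposited were P2ry13, a nucleotide receptor, at 0.83 ± 0.26, and Cxcr1, a chemokine receptor, at 0.58 ± 0.15. Gpr65, a proton-sensing receptor, read 8.68, 7.74 and 8.69 in old and 9.37, 9.52, 9.57, 8.87 and 9.75 in young HSC, a difference of -1.04 ± 0.20. Ccrl2, an atypical chemoattractant receptor, fell by 0.93 ± 0.18, with old HSC 3 at 8.63 above young HSC 4 at 8.54. Gpr65 was called in all 8 fits without 1 array, Ccrl2 in all but that without old HSC 1, where it was -0.75. P2ry13 was called in 3 and Cxcr1 in 5.

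Of 25 enzymes and receptors of eicosanoids, lipid mediators made from arachidonic acid, 2 were higher and 2 lower (8% each, beside 2.25% and 9.22% of all genes), and 2 and 1 held. Cysltr2, a leukotriene receptor, read 10.16, 9.62 and 10.5 in old and 9.03, 9.7, 9.05, 8.55 and 9.32 in young HSC. Old HSC 2 lay below young HSC 2, and the mean was 0.96 ± 0.23 higher (limma adjusted p = 0.0158). Hpgds, which makes prostaglandin D, read 8.41, 8.7 and 8.19 against 8.08, 7.4, 7.84, 7.46 and 7.26, 0.82 ± 0.18 higher without overlap. Lta4h, which makes a leukotriene, fell by 0.75 ± 0.20. Cysltr2 was not called without old HSC 1 (0.93), Hpgds not without old HSC 2 (0.69), and Lta4h not without old HSC 1, old HSC 2 or young HSC 2 (-0.76 to -0.64).

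Of a run of neighbouring lectin genes, 4 were called higher. C-type lectin-like receptors bind sugars or other ligands on leukocytes and platelets, and many lie side by side in the NK gene complex. Of 33 lectin and NK receptor genes measured, 6 were higher (18.2%, beside 2.25% of all genes) and 1 lower, and 5 and 1 held, while the median of the list was 0.08. Of the 33, 22 were under the background level on all 8 arrays, and dim genes as a group read slightly higher on the old arrays, as the olfactory receptor genes described with the microRNA genes show; their part in these calls was not tested. With the arrays scaled to a common interquartile range the list had 4 higher and 5 lower and a median of -0.22. In gene order along the chromosome, Clec12b, Clec1b, Clec9a and Clec1a followed each other and all 4 held as higher. The genes on either side did not: Clec12a stood at -0.48 (limma adjusted p = 0.0512, called lower only after quantile normalization), Clec7a at 0.06 and Olr1 at 0.22.

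Clec1a read 8.48, 8.34 and 8.59 log2 in old HSC and 7.54, 7.71, 7.53, 7 and 7.07 in young HSC. It was the brightest of the 4 and the old arrays were all well above the young ones, with a difference of 1.10 ± 0.16 (2.15-fold, limma adjusted p = 0.00136). Clec9a, known as a receptor for dead cells on dendritic cells, read 7.72, 6.89 and 7.21 against 6.51, 5.66, 5.64, 5.42 and 5.91. All young arrays were under the background level, so it was at least 1.43-fold higher (limma adjusted p = 0.0047). Clec1b, a platelet receptor for podoplanin, read 5.98 to 6.62 in old and 5.26 to 5.78 in young HSC, under the background level in both groups, and gets no fold. Clec12b, an inhibitory receptor, read 7.03, 7.26 and 6.42 in old and 6.02 to 6.33 in young HSC. It was under the background level on all young arrays and at least 1.11-fold higher (limma adjusted p = 0.0125). Clec1a, Clec9a and Clec1b were called in all 8 fits without 1 array and Clec12b in 6. Of the 12 dendritic markers measured, Clec9a was the 1 called higher and Flt3 the 1 called lower, and the median was 0.16, with 4 of the 12 under background on all 8 arrays. In the RefSeq gene table the annotated span of Clec12b contains Clec1b and Clec9a and overlaps Clec1a, so the probe sets lie in overlapping gene models.

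Away from the block, Klrb1c, the NK receptor NK1.1, read 7.72, 7.22 and 8.29 in old and 6.82, 7.11, 6.65, 5.59 and 6.78 in young HSC. All old arrays were above the young ones and the difference was 1.15 ± 0.25 (limma adjusted p = 0.0109). Cd69, an activation marker of lymphocytes that is encoded near the block, was lower. It read 5.25, 6.19 and 6.71 in old and 6.62, 7.58, 7.52, 7.44 and 7.12 in young HSC, with old HSC 3 just above young HSC 1. The old arrays were all under the background level, so it was at least 1.14-fold lower (limma adjusted p = 0.0106), and it was not called without old HSC 1 (a measured difference of -0.81).

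The 250 bases upstream of the first listed start are shown for 3 of the 4 block genes, which were all called higher. Those of 3 genes of large lowered complexes are shown beside them for contrast. They are from RefSeq (GRCm38.p6), 5′ to 3′ on the gene's strand, with CG dinucleotides in capitals. Clec12b lies at chr6:129385504-129385753 on the minus strand, Clec1b at chr6:129397047-129397296 and Clec9a at chr6:129408612-129408861, both on the plus strand. The Clec12b window lies inside the annotated span of that gene, not at its outer end. Whether the 4 probe sets read separate transcripts was not tested.
Clec12b: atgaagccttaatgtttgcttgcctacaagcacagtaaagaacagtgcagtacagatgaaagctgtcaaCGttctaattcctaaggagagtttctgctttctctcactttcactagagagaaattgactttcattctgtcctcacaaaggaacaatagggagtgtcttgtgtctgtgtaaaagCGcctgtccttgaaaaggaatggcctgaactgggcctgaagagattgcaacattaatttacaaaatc
Clec1b: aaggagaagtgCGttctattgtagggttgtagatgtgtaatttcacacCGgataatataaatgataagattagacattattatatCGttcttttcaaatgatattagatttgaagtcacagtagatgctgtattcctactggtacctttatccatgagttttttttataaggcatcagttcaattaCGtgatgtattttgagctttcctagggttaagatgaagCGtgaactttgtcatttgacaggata
Clec9a: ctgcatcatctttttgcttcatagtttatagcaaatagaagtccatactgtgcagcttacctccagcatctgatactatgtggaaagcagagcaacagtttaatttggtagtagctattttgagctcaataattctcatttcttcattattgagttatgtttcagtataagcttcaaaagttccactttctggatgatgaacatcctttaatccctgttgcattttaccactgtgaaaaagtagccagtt
These windows held 2, 5 and 0 CG dinucleotides. Mrps21 (mitochondrial ribosome) lies at chr3:95871515-95871764 on the minus strand, Cct3 (chaperonin) at chr3:88296885-88297134 on the plus strand and Tomm5 (mitochondrial import) at chr4:45108114-45108363 on the minus strand.
Mrps21: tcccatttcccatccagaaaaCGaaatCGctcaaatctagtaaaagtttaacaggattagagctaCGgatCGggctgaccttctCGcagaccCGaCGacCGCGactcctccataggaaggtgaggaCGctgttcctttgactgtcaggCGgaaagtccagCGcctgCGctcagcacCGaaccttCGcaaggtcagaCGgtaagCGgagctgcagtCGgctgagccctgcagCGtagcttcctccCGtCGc
Cct3: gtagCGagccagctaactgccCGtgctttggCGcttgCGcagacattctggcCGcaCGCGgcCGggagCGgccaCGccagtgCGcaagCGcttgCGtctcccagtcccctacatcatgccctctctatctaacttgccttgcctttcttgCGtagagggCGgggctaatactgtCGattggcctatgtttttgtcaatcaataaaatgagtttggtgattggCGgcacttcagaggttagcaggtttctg
Tomm5: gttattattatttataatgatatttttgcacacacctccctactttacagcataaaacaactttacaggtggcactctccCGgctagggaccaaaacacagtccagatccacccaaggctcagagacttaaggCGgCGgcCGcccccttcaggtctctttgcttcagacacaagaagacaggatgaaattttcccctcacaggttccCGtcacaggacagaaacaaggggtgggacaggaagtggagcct
They held 21, 17 and 5.

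The 6 windows do not separate cleanly, since Clec1b and Tomm5 both held 5. Over the called genes a promoter was counted as CpG-rich where its observed over expected CG count passed 0.6 and its GC content 50%. That was the case for 6928 of 15160 genes with a promoter entry (45.7%), for 49 of the 153 held higher genes with an entry (32%) and for 345 of the 583 held lower ones (59.2%). The letters TATAAA, searched on both strands, were in 11.2%, 17% and 4.63% of these windows. The 15 largest decreases did not follow the held lower genes: 1 of the 9 with an entry was CpG-rich (11.1%). Among the 15 largest increases 4 of the 11 with an entry were (36.4%), below the share of all genes like the held higher ones. These are counts of letters in a fixed window and show no site or cause.

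Ion channels and membrane proteins formed another part of the increases. Trpc1, a cation channel of calcium entry, read 7.99, 7.11 and 7.99 in old and 6.45, 6.31, 6.28, 6.07 and 5.84 in young HSC. The young arrays were all under the background level, so it was at least 1.92-fold higher (difference 1.5 ± 0.18, limma adjusted p = 2.39e-04). Trpc4, Trpc5, Trpc6 and Trpc7 were not called, with Trpc6 at 9.66 to 10 in old and 9.75 to 10.35 in young HSC. Orai2, a pore subunit of store-operated calcium entry, was 0.66 ± 0.21 higher, and Trpv2, another calcium-permeable channel, a difference of -0.64 ± 0.15.

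Clca3a1, of the family that accompanies calcium-activated chloride channels, read 9.98, 9.12 and 10.12 in old and 8.92, 8.38, 8.8, 7.13 and 8.22 in young HSC. It was 1.45 ± 0.30 higher (limma adjusted p = 0.00844), and without old HSC 1 it was 1.33 and not called. Its near-identical neighbour Clca3a2 differed by 1.39 ± 0.36, with old HSC 2 at 8.28 among the young values, and was not called without old HSC 1 or old HSC 3 (1.05 and 1.15). How far each probe set reads the other's RNA is uncertain. Of 34 channels 4 were higher (11.8%, beside 2.25% of all genes) and 3 lower (8.82%, beside 9.22%), and 4 and 2 held.

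Plscr2, a phospholipid scramblase of the plasma membrane, read 8.56, 8.14 and 8.43 in old and 7.09, 7.57, 7.45, 5.96 and 7.07 in young HSC, 1.35 ± 0.24 higher (limma adjusted p = 0.00396). Plscr4 was 0.61 ± 0.17 higher without overlap, but it was not called without old HSC 1, old HSC 2, young HSC 2 or young HSC 3 (0.55 to 0.63). Plscr1 and Plscr3 stood at 0.33 ± 0.19 and -0.12 ± 0.10, and Plscr1 was called higher only after quantile normalization. Cavin2, a coat protein of caveolae, read 9.65, 9.71 and 10.26 against 9.39, 8.86, 8.85, 7.35 and 8.39. Cavin2 was 1.31 ± 0.29 higher with old HSC 1 close to young HSC 1. Of the 30 largest differences it was the 1 not called with Xist as a covariate. Tmem47, a junction-associated membrane protein encoded on the X chromosome, was 1.30 ± 0.17 higher at 7.6 to 8.08 against 6.15 to 7.04.

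Adhesion genes were higher or lower one by one. Itgb3, the integrin beta subunit that pairs with the platelet integrin alpha chain, read 9.71, 8.97 and 9.31 in old and 8.78, 8.09, 8.3, 7.93 and 7.94 in young HSC. All old arrays were higher, by 1.12 ± 0.18 on average (2.17-fold, limma adjusted p = 0.00193). Its partner Itga2b differed by 0.31 ± 0.13 and was called only after quantile normalization. Alcam, an immunoglobulin-type adhesion molecule, read 10.8, 9.84 and 10.9 against 9.85, 9.48, 9.45, 9.26 and 9.44, 1.02 ± 0.19 higher, with old HSC 2 a hair below young HSC 1.

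Selplg, the selectin ligand PSGL-1, read 8.7, 9.08 and 8.44 in old and 9.75, 9.53, 9.97, 9.3 and 9.8 in young HSC, a difference of -0.93 ± 0.17 (limma adjusted p = 0.005). Itgam, the alpha chain of Mac-1, read 6.26 to 6.41 in old and 6.88 to 7.42 in young HSC. It was under the background level on all old arrays and at least 1.01-fold lower (limma adjusted p = 0.00341). Both, and Itgb3 and Alcam, were called in all 8 fits without 1 array. Gp5, a subunit of the platelet receptor for von Willebrand factor, fell by 0.84 ± 0.19, and Vwf itself was 0.34 ± 0.13 higher, called only after quantile normalization. Sema7a, a membrane-bound semaphorin, was 0.72 ± 0.17 higher without overlap, though not without old HSC 1 or old HSC 2 (0.74 and 0.77, not called).

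Hey1, a transcriptional target of Notch, read 6.9, 6.99 and 7.4 in old and 7.95, 7.73, 8.2, 7.77 and 8.19 in young HSC. It fell by 0.88 ± 0.15 without overlap (limma adjusted p = 0.00283). Hes1, another target, read 7.79, 7.7 and 8.56 against 9.46, 9.02, 9.64, 7.74 and 9.47. Young HSC 4 sat with the old arrays, and its difference of -1.05 ± 0.30 did not hold after quantile normalization. Of 27 Notch genes 4 were lower (14.8%) and 2 higher (7.41%), beside 9.22% and 2.25% of all genes. Of these 1 and 1 held, and the median of the list was 0.06.

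In TGF-beta and BMP signalling, 2 of 36 genes were higher (5.56%) and 3 lower (8.33%), beside 2.25% and 9.22% of all genes. Of these 1 and 1 held. Bmp4, a ligand, was 0.84 ± 0.22 higher, with young HSC 1 at the level of old HSC 1, and was not called without old HSC 1, 2 or 3 or young HSC 2 (0.64 to 0.96). Eng, a co-receptor, fell by 0.69 ± 0.15, with old HSC 3 and young HSC 4 both at 8.4. Eng was not called without old HSC 1 or old HSC 2 (-0.67 to -0.64). Bmpr1a, a BMP receptor, was 1.08 ± 0.33 higher only as deposited. Wnt genes had 1 lower call among 30 (3.33%) and receptor tyrosine kinases 1 in each direction among 31 (3.23%). Nuclear receptors had 1 higher call among 23 (4.35%) that did not hold. In each of these the median lay between -0.01 and 0.13.

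Among cytokine receptors other than Osmr, Il12rb2, a chain of the interleukin 12 receptor, fell by 0.74 ± 0.17 without overlap, and Ifnar2 fell by 0.60 ± 0.17 only as deposited. The list counted 29 genes with 1 higher (3.45%) and 2 lower (6.90%), beside 2.25% and 9.22% of all genes. Insulin and mTOR signalling had 8 of 34 genes lower (23.5%) and 0 higher, of which 4 held, and 28 of the 34 were below 0. The median was -0.16 as deposited and -0.01 after quantile normalization. They included Rheb, the small GTPase that activates mTORC1, at -0.86 ± 0.21, and the kinase Stk11 at -0.70 ± 0.17. Without old HSC 1 that list had 1 lower call and without old HSC 2 it had 0.

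Other increases belonged to no list. Zg16, a secretory granule lectin, read 7.42, 7.09 and 7.81 in old and 5.76 to 6.25 in young HSC, where it was under the background level, and was at least 1.61-fold higher (limma adjusted p = 1.66e-04). Tdrd9, a helicase of the piRNA pathway of germ cells, read 8.05, 7.66 and 7.83 in old and 6.71, 6.55, 6.66, 6.6 and 6.52 in young HSC. The Tdrd9 means were 7.85 ± 0.19 and 6.61 ± 0.08 (SD, n = 3 and 5), a difference of 1.24 ± 0.13. Of the young arrays only young HSC 1 was above the background level, by little (6.71 beside 6.65). The narrow young spread therefore lay near that level. Fhdc1, a formin-type regulator of actin and microtubules, was 1.32 ± 0.21 higher, and of its young arrays only young HSC 3 was above the background level. Klhl4, an X-linked kelch-like protein, was 1.24 ± 0.19 higher. F630111L10Rik was 1.15 ± 0.22 higher, with old HSC 3 at 9.24 next to young HSC 1 at 9.15. Tc2n was under the background level on all young arrays and at least 1.21-fold higher (limma adjusted p = 0.00291), with overlapping arrays (old HSC 2 at 5.83, young HSC 1 at 5.95), and it is named here after its value was seen.

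Myl10, a myosin regulatory light chain known from precursor lymphocytes, had the largest decrease among genes without overlap. It read 8.84, 8.57 and 8.88 log2 in old HSC and 10.02, 11.78, 11.75, 11.04 and 11.84 in young HSC. The old arrays were alike and all far below the young ones, a difference of -2.52 ± 0.32 (5.73-fold lower, limma adjusted p = 3.56e-04) and -2.30 after quantile normalization. Mgst1, a microsomal glutathione transferase, read 6.38, 5.87 and 5.98 against 8.59, 9.39, 8.52, 6.41 and 8.49. Young HSC 4 was at the old level, and since the old arrays were under background it was at least 2.32-fold lower (limma adjusted p = 0.00555). Its relatives Mgst2 and Mgst3 stood at -0.64 ± 0.22 and -0.16 ± 0.17 and were not called.

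Plac8, a small cysteine-rich protein of myeloid and lymphoid progenitors, read 7.88, 7.18 and 8.08 in old and 9.04, 9.62, 9.43, 10.11 and 9.01 in young HSC, a difference of -1.73 ± 0.21 (limma adjusted p = 2.39e-04). Ctss, the protease cathepsin S of antigen-presenting cells, read 7.4, 7.6 and 6.92 against 8.48, 8.95, 9.08, 8.94 and 8.91, a difference of -1.57 ± 0.18. Rnase6, an antimicrobial ribonuclease, read 8.03, 8.12 and 8.87 against 9.58, 9.89, 9.76, 9.51 and 9.74. All 3 were clear of overlap, and all were called in each fit without 1 array. Rnase6 was not called with the interquartile range as a covariate. Cd86, a ligand for T cell costimulation, was under the background level in old HSC at 5.5 to 6.03 against 6.79 to 7.72, at least 1.04-fold lower (difference -1.28 ± 0.20). Itm2a, an X-linked membrane protein, fell by 1.29 ± 0.15.

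Lgals1, the sugar-binding galectin 1, read 7.83, 8.61 and 8.82 in old and 10.07, 10.38, 10.38, 9.56 and 10.34 in young HSC, a difference of -1.72 ± 0.20 (3.30-fold lower, limma adjusted p = 1.66e-04). Calcium-dependent membrane-binding annexins fell beside it. Anxa2 read 7.15, 6.65 and 6.74 against 7.7, 8.46, 7.81, 7.51 and 7.57 and fell by 0.96 ± 0.19, and Anxa6 fell by 0.90 ± 0.17, both without overlap. S100a10, the partner of Anxa2, fell by 0.87 and Anxa1 fell by 0.76. Of 26 S100 proteins, annexins and galectins, 5 were lower (19.2%, beside 9.22% of all genes) and all 5 held (beside 3.77%). Lgals12 was higher only as deposited. The list kept 3 to 12 lower calls in the fits without 1 array. The neutrophil members S100a8 and S100a9 were not called, at -0.57 ± 0.40 and -0.82 ± 0.47.

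Tspan8, a tetraspanin, read 6.47, 6.69 and 6.07 in old and 7.78, 8.7, 8.23, 7.04 and 7.84 in young HSC and was at least 1.80-fold lower. Of its family, Tspan6 (-1.24 ± 0.21) and Tspan5 (-0.85 ± 0.18) were also held and lower without overlap, and Tspan32 was 0.53 ± 0.17 higher with overlap. Rnu3a, a copy of the U3 small nucleolar RNA of ribosomal RNA processing, read 8.11, 7.7 and 8.08 against 10.05, 9.64, 10.2, 8.86 and 9.78, a difference of -1.74 ± 0.29. The U3 copies are near-identical, so which copy was measured is uncertain. Lipo3, a lipase of a family with near-identical members, fell by 1.69 ± 0.27, with the same uncertainty. The remaining large decreases were 9030619P08Rik (-1.53 ± 0.24), C330018D20Rik (-1.32 ± 0.28), Tmem267 (-1.26 ± 0.25) and Slc35a4 (-1.25 ± 0.26). C330018D20Rik and Slc35a4 stood at -1.07 and -0.97 without old HSC 2 and were not called.

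Among 48 function lists, 16 had at least 25% of their genes lower as deposited, and 1 of them kept that share under both normalizations, the mitochondrial ribosome. With the interquartile range as a covariate 5 of the 48 lists had any lower call. The mitochondrial ribosome then had 0, with a median of -0.21. In 24 lists calls were lower and never higher. Over all genes 9.22% were lower and 3.77% held as lower. The plot of these lists gives their medians and shares. In the lists described next the median lay nearer to 0 after quantile normalization than as deposited.

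**Figure D4:**
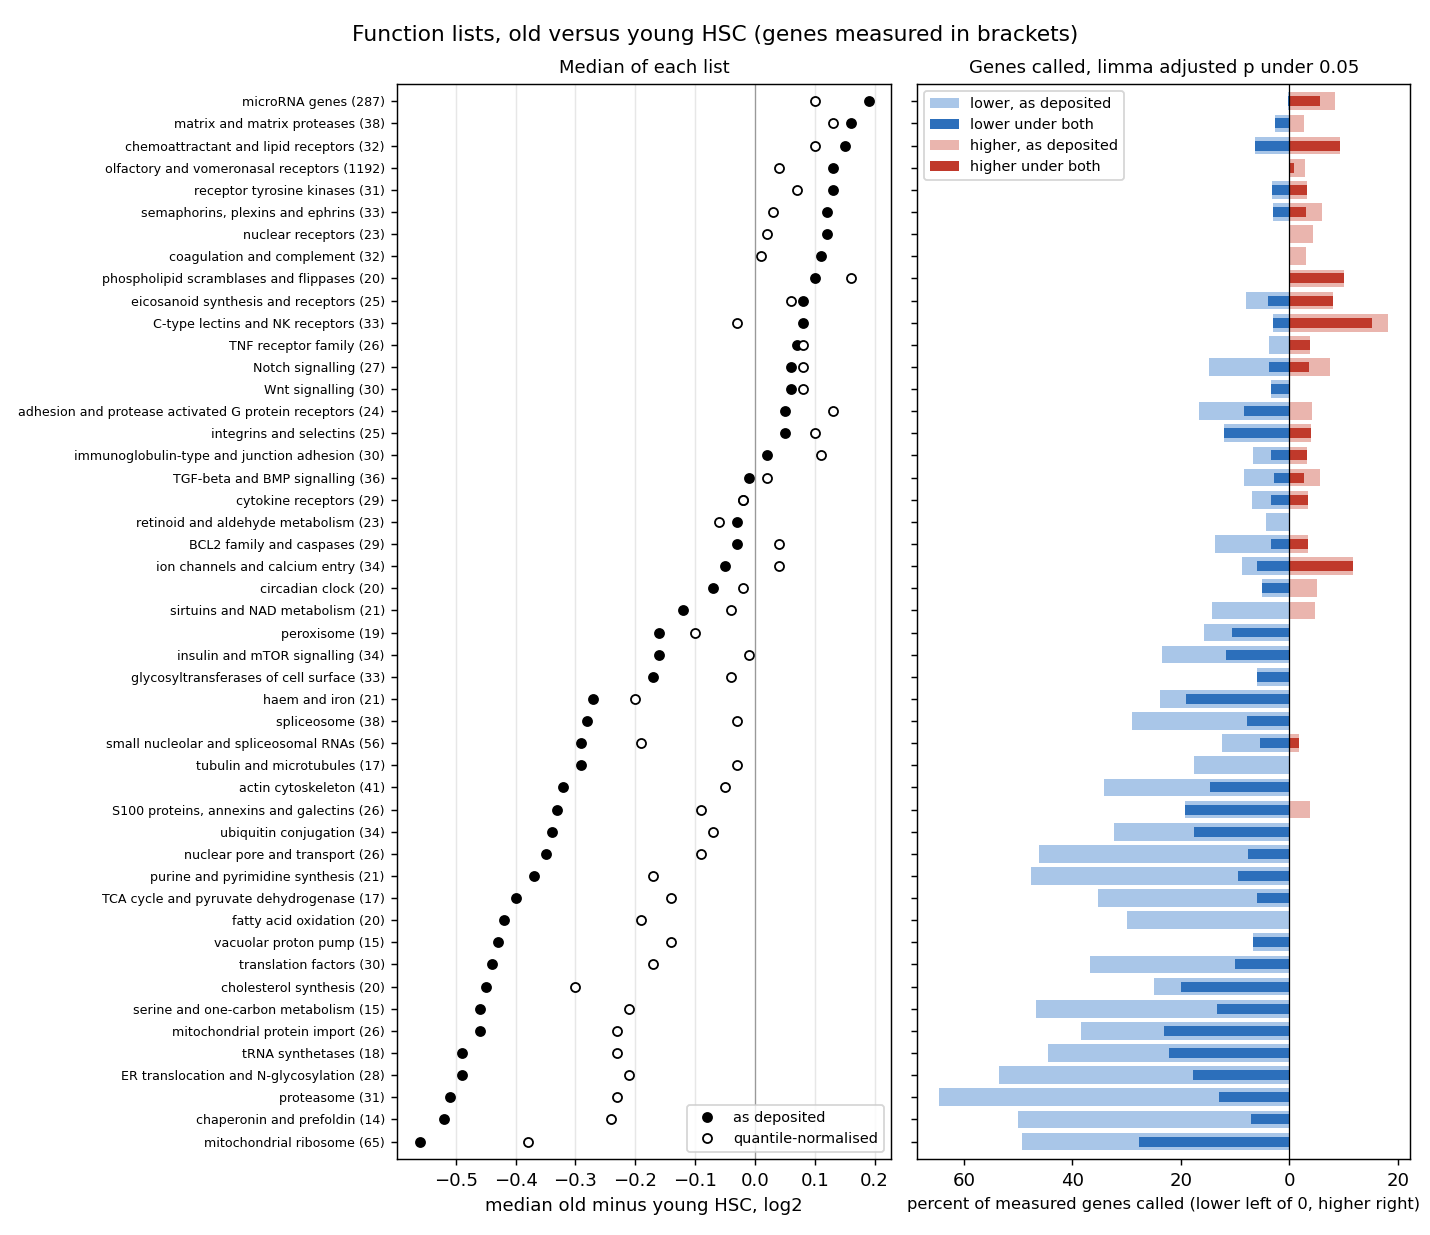
Left, the median old minus young HSC difference (log2) of each of the 48 function lists, with the number of genes measured in brackets, as deposited (filled) and after quantile normalization (open). Right, the percent of each list's genes called lower (blue, left of 0) and higher (red, right of 0), as deposited (pale) and under both normalizations (dark). The mitochondrial ribosome has the lowest medians, -0.56 and -0.38, and the lectin list the largest higher share, 18.2%.

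The mitochondrial ribosome, which translates the few proteins encoded in mitochondria, had all 65 measured genes below 0. Of these 32 were lower (49.2%, beside 9.22% of all genes), and 18 held (27.7%, beside 3.77%). The mean of the 65 genes was 8.61, 8.49 and 8.87 log2 in old HSC and 9.14, 9.38, 9.4, 8.74 and 9.38 in young HSC. Young HSC 4 lay between old HSC 1 and 3, and it remained there after quantile normalization, at 8.83 beside 8.75, 8.7 and 8.91 in old HSC. Mrps21, a small subunit protein, read 9.27, 9.23 and 9.93 in old and 10.81, 10.85, 10.87, 9.86 and 11 in young HSC. Its difference was -1.2 ± 0.25 (limma adjusted p = 0.00798), and Mrpl50 and Mrps12 stood at -0.98 ± 0.20 and -0.91 ± 0.20. Without old HSC 1 the list had 8 lower calls, without old HSC 2 3, without young HSC 2 or 3 18 each, and without young HSC 4 54.

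Mitochondrial protein import had 10 of 26 genes lower (38.5%, beside 9.22% of all genes) and 6 held (23.1%, beside 3.77%). Tomm20, the receptor of the outer membrane, read 8.68, 8.86 and 9.64 in old and 10.04, 10.13, 10, 9.44 and 10.13 in young HSC, a difference of -0.89 ± 0.21. Tomm5 and Timm8b, small subunits of the outer membrane pore and of an intermembrane chaperone, fell by 1.02 ± 0.26 and 0.99 ± 0.24. In each of these 3 old HSC 3 was above young HSC 4. The list had 0 calls without old HSC 1 or old HSC 2, 5 or 6 without young HSC 2, 3 or 5 and 19 without young HSC 4. Of 17 genes of the citric acid cycle and pyruvate dehydrogenase 6 were lower and 1 held, Pdhx (-0.62 ± 0.16), and of 20 fatty acid oxidation genes 6 were lower and 0 held. Both lists had 0 lower calls without old HSC 1 or old HSC 2, and 13 and 17 without young HSC 4. Pdhx was not called without old HSC 1, old HSC 2 or young HSC 2 (-0.69 to -0.53).

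The proteasome, which degrades ubiquitin-tagged proteins, had the largest share of lower calls as deposited. Of its 31 genes 20 were lower (64.5%, beside 9.22% of all genes) and 4 held (12.9%, beside 3.77%). Its mean was 10.1, 10.04 and 10.39 in old and 10.58, 10.86, 10.84, 10.33 and 10.82 in young HSC, a span in which young HSC 4 overlapped the old arrays. Psmb5, a catalytic subunit, read 9.61, 9.47 and 9.81 against 10.4, 10.58, 10.63, 10.02 and 10.44. It was lower on every old array, by 0.78 ± 0.14 (limma adjusted p = 0.00448), and was called in all 8 fits without 1 array. With each array scaled to a common interquartile range the list had 1 lower call and a median of -0.09. It had 2 lower calls without old HSC 1, 1 without old HSC 2, 9, 8 and 10 without young HSC 2, 3 and 5 and 31 without young HSC 4.

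Of 14 chaperonin and prefoldin genes 7 were lower and 1 held, Cct3, a chaperonin subunit, at -1.02 ± 0.21. Of 28 genes of translocation into the endoplasmic reticulum and N-glycosylation 15 were lower (53.6%) and 5 held (17.9%), among them the channel subunit Sec61b (-0.85 ± 0.18) and Ssr2 (-0.83 ± 0.19). Of 34 ubiquitin conjugation genes 11 were lower (32.4%) and 6 held (17.6%). Nedd8, a ubiquitin-like modifier, read 10.47, 10.85 and 11.11 in old and 11.52, 11.88, 11.77, 11.15 and 11.9 in young HSC, a difference of -0.83 ± 0.16 without overlap. Without old HSC 1 these 3 lists had 1, 1 and 4 lower calls, without old HSC 2 0, 1 and 3, and without young HSC 4 11, 20 and 19. With the arrays scaled to a common interquartile range they had 1, 3 and 6 lower calls and 1, 0 and 1 higher, with medians of -0.03, -0.12 and 0.02.

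Of 18 tRNA synthetases 8 were lower (44.4%, beside 9.22% of all genes) and 4 held (22.2%, beside 3.77%). They were led by Farsb, a phenylalanine enzyme subunit, at -0.76 ± 0.17. Of 30 translation factors 11 were lower and 3 held, among them Eif2b1, a subunit of the exchange factor of eIF2, at -0.82 ± 0.20. Of 38 spliceosome genes 11 were lower and 3 held. Snrpa1, a protein of the U2 particle, read 9.46, 9.38 and 9.91 in old and 10.37, 10.5, 10.61, 10.26 and 10.66 in young HSC, a difference of -0.90 ± 0.14 (limma adjusted p = 0.00193). Of 26 nuclear pore and transport genes 12 were lower and 2 held. Nup133, a scaffold nucleoporin, read 7.65, 7.79 and 7.95 against 8.91, 8.82, 8.84, 8.56 and 8.79, a difference of -0.98 ± 0.14 (limma adjusted p = 9.46e-04). Snrpa1 and Nup133 were called in all 8 fits without 1 array. The 4 lists together had at most 2 lower calls each without old HSC 1 or without old HSC 2, and 12, 20, 19 and 17 without young HSC 4. With the arrays scaled to a common interquartile range the direction turned for translation factors (3 higher, 2 lower, median 0.09) and for the median of the spliceosome (2 higher, 3 lower, median 0.10). Eif2b1 was not called without old HSC 1 or old HSC 2, nor Farsb without old HSC 2. Under that scaling the tRNA synthetases had 4 lower calls and nuclear transport 3.

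Of 21 genes of purine and pyrimidine synthesis 10 were lower (47.6%, beside 9.22% of all genes) and 2 held (9.52%, beside 3.77%). These were Umps, which completes the pyrimidine ring nucleotide UMP (-0.82 ± 0.12, called in all 8 fits without 1 array), and Gart (-0.63 ± 0.15). Of 15 serine and one-carbon genes 7 were lower and 2 held, Mthfd1 and Mtrr. Of 20 cholesterol synthesis genes 5 were lower and 4 held (20%), Fdps, Sqle, Cyp51 and Ebp. Fdps, which makes farnesyl diphosphate, read 7.78, 7.86 and 7.84 in old and 8.53, 8.63, 8.74, 8.07 and 8.96 in young HSC, a difference of -0.76 ± 0.15 without overlap. The cholesterol list kept a median of -0.30 after quantile normalization, beside -0.45 as deposited, and 2 to 6 lower calls in 7 of the fits without 1 array, with 14 in the fit without young HSC 4. Of 21 haem and iron genes 5 were lower and 4 held, led by Glrx5, a mitochondrial iron-sulfur cluster protein, at -0.92 ± 0.19. Without old HSC 1 the purine and pyrimidine, serine and haem lists had 2, 0 and 1 lower calls, without old HSC 2 1, 0 and 1, and without young HSC 4 15, 8 and 9. Mthfd1, Gart and Sqle were not called without old HSC 1 or old HSC 2, Ebp and Glrx5 not without old HSC 2, and Mtrr not in 5 of the 8 fits.

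In the cytoskeleton, 14 of 41 actin genes were lower (34.1%, beside 9.22% of all genes) and 6 held (14.6%, beside 3.77%). Myl10 was among them with Arpc5l, a subunit of the actin-nucleating Arp2/3 complex (-0.89 ± 0.21), and Flna, Capzb, Myh10 and Tmsb10. The list had 3 lower calls without old HSC 1, 3 without old HSC 2 and 22 without young HSC 4. With the arrays scaled to a common interquartile range it had 3 higher and 5 lower calls and a median of 0.13, beside -0.32 as deposited. Tubulin genes had 3 lower calls among 17 and 0 that held, and their median turned from -0.29 as deposited to 0.09 under that scaling.

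The direction of the microRNA genes depended on the scaling. Of 287 measured, 24 were higher (8.36%) and 1 lower (0.348%), beside 2.25% and 9.22% of all genes. Of these 16 and 1 held (5.57% and 0.348%, beside 1.10% and 3.77%). The median was 0.19 as deposited and 0.10 after quantile normalization. With the arrays scaled to a common interquartile range 20 were higher and 33 lower, with a median of -0.10, and with that range as a covariate 0 were called, with a median of -0.02. Of these genes, 171 were under the background level on all 8 arrays. The olfactory and vomeronasal receptor genes, 1192 genes of which 1099 were under it on all 8 arrays, had a median of 0.13 and 0.04, with 35 higher (2.94%) and 0 lower and 11 held. The microRNA list had 2 higher calls without old HSC 1, 3 without old HSC 2, 10, 7, 7 and 14 without young HSC 1, 2, 3 and 5, and 70 without young HSC 4. The mean of those receptor genes was 5.09, 5.23 and 5.05 in old HSC and 4.94, 4.93, 4.98, 5.14 and 4.97 in young HSC, so dim genes read higher on the old arrays and on young HSC 4. The part of that in the microRNA calls was not tested. The probe sets read the transcript of the locus, not the mature microRNA.

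Of the held microRNA genes, 5 had no overlap and were called in at least 6 of the 8 fits without 1 array: Mir674, Mir211, Mir383, Mir194-2 and Mir370. Mature sequences of 4 of them were matched in RefSeq (GRCm38.p6). They are printed with the seed, bases 2 to 8, in capitals, to show what the loci could give rise to and that no seed was shared among them.
mmu-miR-674-5p: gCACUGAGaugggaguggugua
mmu-miR-674-3p: cACAGCUCccaucucagaacaa
mmu-miR-211-5p: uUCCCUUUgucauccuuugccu
mmu-miR-211-3p: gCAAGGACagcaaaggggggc
mmu-miR-194-5p: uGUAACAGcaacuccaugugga
mmu-miR-194-2-3p: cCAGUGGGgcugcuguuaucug
mmu-miR-370-5p: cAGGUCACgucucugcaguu
mmu-miR-370-3p: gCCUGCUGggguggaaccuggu
Mir674 read 8.99, 9.09 and 8.74 log2 in old HSC and 8.23, 8.14, 8.02, 8.55 and 8.08 in young HSC. Young HSC 4 was the highest young array, and the difference was 0.74 ± 0.13 (1.67-fold, limma adjusted p = 0.00396), called in all 8 fits. Mir211 read 8.49, 8.77 and 8.52 against 7.73, 7.78, 7.58, 8.33 and 8.06, 0.70 ± 0.16 higher. Mir383, Mir194-2 and Mir370 were higher by 0.57 ± 0.13, 0.55 ± 0.14 and 0.52 ± 0.12. In all 5 genes young HSC 4 was the highest young array.

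None of these differences was called in GMP, where 0 genes passed limma's threshold for age (870 at an unadjusted p under 0.05, smallest adjusted p = 0.294). A test of the difference between the age effects in HSC and GMP called 18 genes (0.0933%), and 11 of the 30 named genes were among them. The 30 were picked for a large difference in HSC, which is part of this contrast. That selection favours a high count, so the 11 are not separate support. HSC and GMP arrays of the same age and number deviated together in part, with correlations of 0.16 to 0.52 in young and 0.05 to 0.42 in old, and with age and number as a random block the test called 231 genes. Gpr183 rose by 1.77 in HSC and stood at 0.15 ± 0.19 in GMP, and Trpc1, Zg16, Tmem47 and Tdrd9 stood between -0.15 and 0.07 in GMP. Plac8, Lgals1, Ctss and Itm2a were between -0.03 and 0.05 in GMP, and Rnase6 and Cd86 at 0.53 ± 0.23 and 0.24 ± 0.21. Flt3 and Tspan6 were also among the 18, with age effects of 0.73 and 0.48 in GMP. For the other named genes the difference between the cell types was not called. Tnfrsf26 stood at 1.81 ± 0.45 in GMP and Tmem267 at -1.05 ± 0.26, of the same sign and similar size as in HSC, though neither was called there. The test called 1 gene without old HSC 1, 12 without old HSC 2, 3, 1 and 3 without young HSC 2, 3 and 5, and 192 without young HSC 4.

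**Figure D5:**
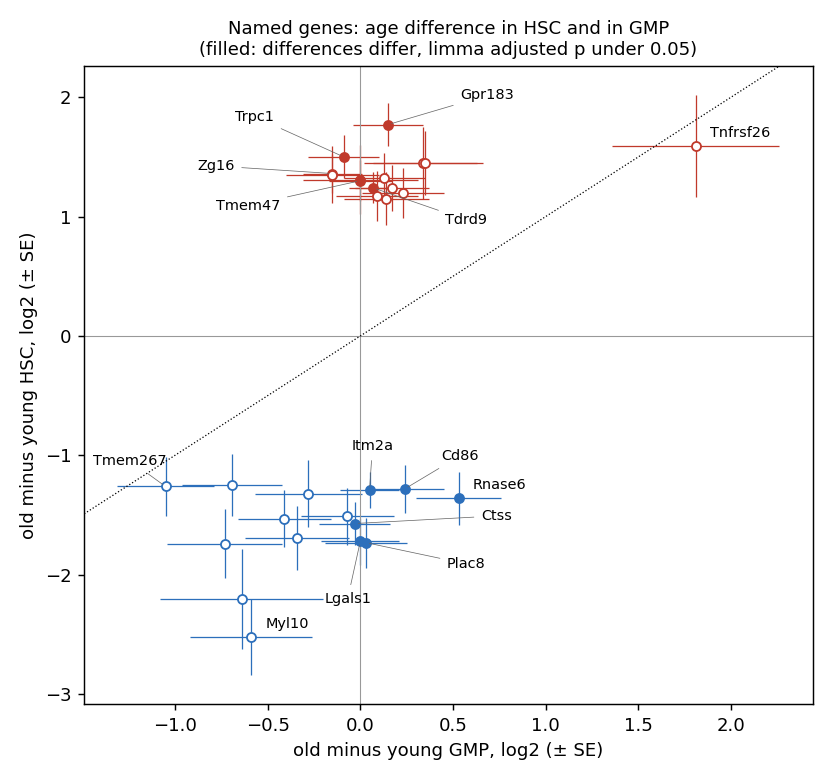
Old minus young difference of the 30 named genes in GMP (x axis) and in HSC (y axis), in log2 with SE bars; the dotted line marks equal differences. Filled points are the 11 genes whose difference is itself different between HSC and GMP (limma adjusted p under 0.05). They lie between -0.15 and 0.53 on the x axis, while Tnfrsf26 and Tmem267 lie near the line. The 30 genes were chosen by their difference in HSC.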

How the data were processed

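The RNA was measured on Affymetrix arrays, 15 in all. The deposited values are on a log2 scale, made by the authors with RMA. That step, with affy and limma, is listed in the submitters' processing notes and has no version there. Of 23309 probe sets 20728 had 1 gene symbol, and the brightest probe set was kept for each of 804 genes with several, which left 19296 genes. The main test was limma 3.58.1 in R 4.3.3, with 1 mean per group over the 15 arrays, eBayes and Benjamini-Hochberg adjustment over all genes. It was repeated after quantile normalization and under the alternatives given in the closing paragraphs. Named genes were the 15 largest increases and 15 largest decreases called under both normalizations without overlap of arrays, and up to 3 genes per function list. The results of 1 function list are not reported here. The members and lists were chosen with earlier results of these data known. On simulated data of 19296 genes, the fit for old against young HSC recovered 94% of genes changed by 1 log2 and 20.5% of those changed by 0.5, with 4.08% and 12.8% of calls false. The simulation gave each gene independent noise around 1 mean, with 200 genes changed and no array-wide difference in spread. The real arrays differ in spread, so these rates do not describe the real calls. Replicate numbers were checked for pairing: deviations of old and young HSC with the same number correlated at 0.09, -0.24 and 0.15, so the numbers did not pair them. The number of arrays limits the precision. Figures were drawn with matplotlib 3.10.9.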

Additional observations from a re-analysis of the deposited data

Results flagged for a closer look

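Klhl4 read 7.95 log2 on young HSC 4, apart from the other young HSC arrays at 8.61 to 8.8. It was the 1 of 30 groups of 5 young HSC values tested by Dixon's criterion in which an array stood apart, and chance gives about 1 in 20. Of the 30 genes, 11 had an age difference that itself differed between HSC and GMP in limma's test (adjusted p under 0.05). The 30 were picked by their difference in HSC, which favours that result. The difference in HSC minus that in GMP was 1.63 log2 for Gpr183, 1.59 for Trpc1, 1.51 for Zg16, 1.30 for Tmem47 and 1.17 for Tdrd9. It was -1.88 for Rnase6, -1.76 for Plac8, -1.72 for Lgals1, -1.53 for Ctss, -1.51 for Cd86 and -1.33 for Itm2a.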

How the results depend on the processing

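The 2213 age calls in HSC became 1310 after quantile normalization, 871 with the 8 HSC arrays alone, 105 with the interquartile range as a covariate, 8966 with array weights, 6588 with the Y-linked mean as a covariate and 3649 after quantile normalization without young HSC 4. Alternatives chosen after seeing the data gave 3571 with Xist as a covariate and 6183 without young HSC 4 and young GMP 4. Without 1 array the count ran from 345 to 5312. The 18 genes that differed between HSC and GMP became 5 after scaling to a common interquartile range, 5 with that range as a covariate, 231 with a random block of age and number, 2407 with array weights, 32 with the Y-linked mean, 95 after quantile normalization without young HSC 4 and 145 without young HSC 4 and young GMP 4, and ran from 1 to 192 without 1 array. With the replicate number as a block the 2 counts were 6280 and 41, while the numbers did not pair old with young HSC. HSC and GMP arrays of the same age and number correlated at 0.29, 0.23, 0.16 and 0.52 in young and 0.05, 0.23 and 0.42 in old. Over 151 named genes, 2689 of 3296 pairs of a gene and an alternative kept the call, 606 lost it and 1 reversed, Tuba4a at 0.08 after interquartile scaling. The cause of these changes was not tested. Of the 30 largest differences, 17 were called with the interquartile range as a covariate. Genes under the background level have only a bound.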
